A study of Homo sapiens with 4 samples.

Results

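The genes described here are 7 Toll-like receptors (TLR1, TLR2, TLR3, TLR4, TLR5, TLR6 and TLR10) and LY96, CD14 and LBP. The last 3 encode proteins that take part in the binding of lipopolysaccharide (LPS) by TLR4. All 10 genes were listed by symbol. Of 54613 non-control probe sets, the 18 that the platform annotation gave to 1 of these 10 symbols alone were kept, however low their level. TLR4 had 4 probe sets, TLR3 had 3, and TLR6, TLR10 and LBP had 2 each. TLR1, TLR2, TLR5, LY96 and CD14 had 1 each. Levels came from MKN45 cells, a human gastric adenocarcinoma line of epithelial origin with no genetic change made for the study. The 2 LPS-treated samples received new medium with 10 µg/ml Helicobacter pylori LPS and the 2 untreated samples received new medium only. Total RNA was taken from both groups after 8 h and read on 4 Affymetrix arrays. The series text names 2 independent experiments, and p-values measure the spread between these 4 arrays only. All arrays came from this 1 tumour line, which limits it as a model of gastric mucosa.

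Toll-like receptors are membrane proteins that bind microbial molecules through leucine-rich repeats and signal through a cytoplasmic TIR domain to NF-kB, a transcription factor of inflammation. In the best-known LPS pathway the plasma protein LBP extracts LPS from bacterial membranes, CD14 passes it on, and the complex of LY96 (also called MD-2) with TLR4 binds its lipid A part. TLR2 pairs with TLR1 or TLR6 to bind bacterial lipopeptides, TLR5 binds flagellin and TLR3 binds double-stranded RNA in endosomes. H. pylori LPS carries an altered lipid A and is a weak activator of TLR4 compared with that of enteric bacteria, and both TLR4 and TLR2 have been named as its receptors in gastric cells. Setting LPS-treated against untreated cells asks whether the array signals of these receptor transcripts themselves differed at 8 h.

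No receptor or co-receptor probe set differed past the threshold. By limma, 0 of 18 member probe sets had an adjusted p under 0.05, where 0.00549% of all probe sets did, and the smallest adjusted p among the members was 0.523. At an unadjusted p under 0.05 there were also 0 of 18, against 10.1% of all probe sets. The log2 differences, LPS minus untreated, ran from -0.11 (TLR6, probe set 239021_at) to 0.27 (TLR4, probe set 221060_s_at), with a median of 0.066 over the members and 0.0016 over all probe sets. The 95% interval contained 0 for 18 of 18 members. It stayed within 1.5-fold in both directions for 17 of them, and the widest upper bound was 1.52-fold, for TLR4 221060_s_at. These intervals describe array signals and leave room for small differences in them. In untreated cells 13 of the 18 lay under the 50 percentile, and whether such signals follow their transcripts was not tested. A p above the threshold does not show that levels were equal.

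The cells did respond to the LPS on the same arrays. The chemokine genes CCL20, CXCL1 and CXCL8 supplied all 3 probe sets past the threshold, each higher in LPS-treated cells. CCL20, which attracts lymphocytes and dendritic cells, stood at 8.66 and 8.50 (log2 level) in LPS-treated cells, against 5.70 and 5.61 in untreated cells, 7.61-fold higher with a 95% interval of 6.53 to 8.86 (limma adjusted p = 0.000363). CXCL1, a neutrophil attractant, was 3.98-fold higher and CXCL8, which encodes interleukin 8, was 3.31-fold higher on 202859_x_at (limma adjusted p = 0.00108 and 0.00368). The other CXCL8 probe set was 2.25-fold higher and did not pass (limma adjusted p = 0.173). CXCL3 was 2.02-fold higher and did not pass with all probe sets in the family of tests (limma adjusted p = 0.0908). The split of all calls depended on array scaling: it was 3 higher and 0 lower as deposited, 4 higher and 1 lower after quantile normalization, and 4 higher and 7 lower after median centring. Members had 0 calls in each of these. The count of 3 became 9 without untreated replicate 1, and 1 without LPS replicate 1 or without LPS replicate 2.

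**Figure D1:**
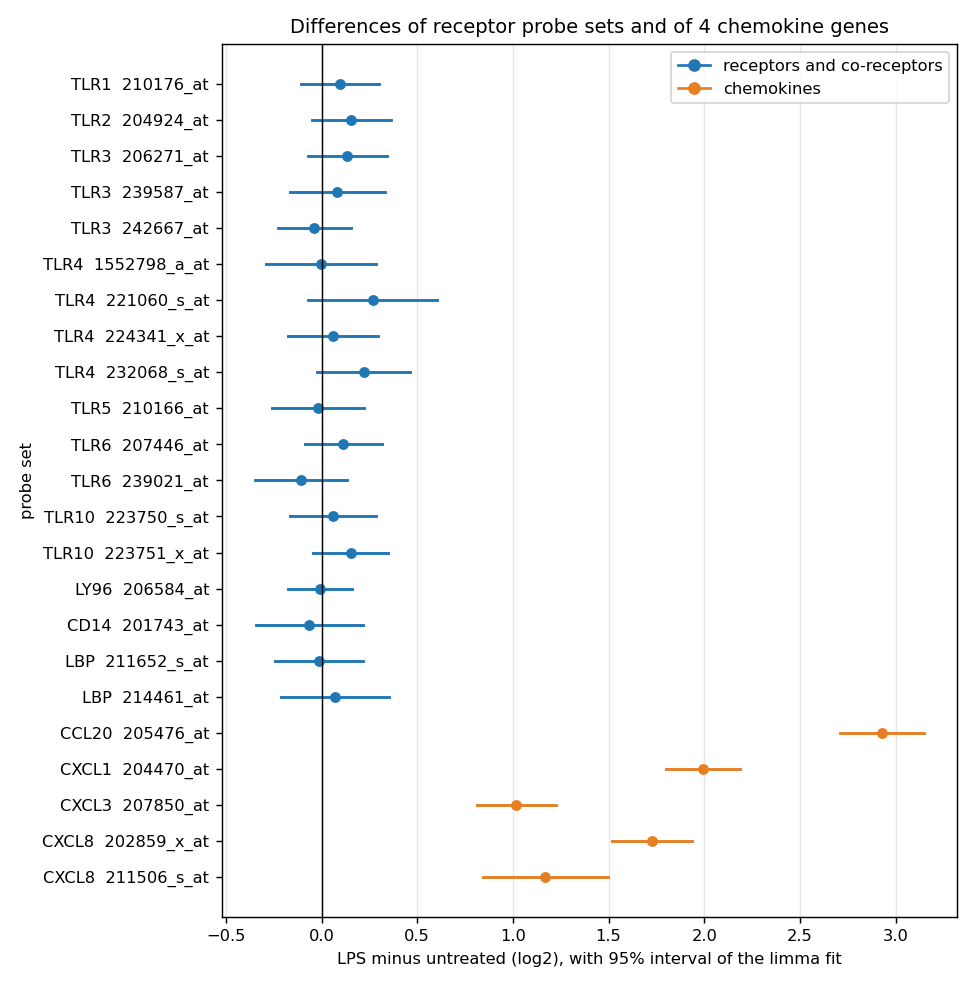
Each point is the log2 difference of a probe set, LPS minus untreated, and each line its 95% interval from the limma fit over 54613 probe sets (2 arrays per group). The 18 receptor and co-receptor intervals all cross 0, and the 5 chemokine probe sets all lie above 0.

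The arrays had medians of 7.004 to 7.034 and correlated with each other at r = 0.996 to 0.998 across probe sets, which are not independent replicates. Of the epithelial marker genes, 11 of 16 lay above the 90 percentile in untreated cells, among them EPCAM, CDH1, KRT8, KRT18 and KRT19, while the intestinal keratin KRT20 was at the 27.7 percentile. Of 12 leukocyte marker genes measured, 1 lay above the 90 percentile. That was lysozyme, LYZ, which gastric glands also make, and the pan-leukocyte marker PTPRC was at the 22.0 percentile. The 12 genes ranged from the 19.9 to the 98.7 percentile with a median of 57.3, and CD53 lay at 73.1. Leukocyte marker levels ran from 5.41 to 12.60 in LPS-treated and from 5.40 to 12.74 in untreated cells, and 0 of 12 passed by limma. At an unadjusted p below 0.05, CD53 (0.33) and FCER1G (0.22) were higher and LYZ (-0.15) lower, 3 of 12 against 10.1% of all probe sets, and their part in the receptor values was not tested. In RNA of whole cultures, a change in how many cells carry a receptor and a change in RNA per cell cannot be told apart.

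TLR4, the signalling receptor for LPS, was read by 4 probe sets that differed in both level and difference. The highest, 224341_x_at, gave 7.81 and 7.82 (log2 level) in LPS-treated cells, against 7.87 and 7.63 in untreated cells, a log2 difference of 0.061 with an interval of -0.17 to 0.30. The groups overlapped, since the untreated arrays lay on both sides of the LPS arrays. On 232068_s_at the values were 7.36 and 7.30 with LPS, against 7.23 and 6.99 untreated, a log2 difference of 0.22 (interval -0.022 to 0.46). Both LPS arrays were above both untreated arrays there, the difference was 0.34 without untreated replicate 1 and 0.10 without untreated replicate 2, and its p was the smallest of all members (limma adjusted p = 0.523).

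The other 2 TLR4 probe sets gave differences of unlike size, and neither passed. Probe set 221060_s_at stood at 6.87 and 6.67 in LPS-treated cells, against 6.70 and 6.30 in untreated cells, a log2 difference of 0.27 (interval -0.071 to 0.60; limma adjusted p = 0.569). Its untreated arrays were 0.41 apart, which is wider than the difference between the groups. Probe set 1552798_a_at stood at 7.02 and 6.69 with LPS, against 6.92 and 6.80 untreated, a difference of -0.0025 with groups that overlapped. Untreated replicate 1 was above untreated replicate 2 on all 4 TLR4 probe sets, by 0.12 to 0.41. LPS replicate 1 minus LPS replicate 2 was 0.33 on 1552798_a_at, 0.20 on 221060_s_at, 0.068 on 232068_s_at and -0.0048 on 224341_x_at. The difference on 221060_s_at was 0.47 without untreated replicate 1 and 0.064 without untreated replicate 2. On 224341_x_at and 1552798_a_at the sign itself depended on which array was left out, with ranges of -0.059 to 0.18 and -0.16 to 0.16.

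LY96 encodes MD-2, the secreted protein that sits on the TLR4 ectodomain and holds lipid A. Its only probe set gave 3.91 and 3.92 in LPS-treated cells, against 3.93 and 3.92 in untreated cells (log2 level), the lowest levels of all members. These values lay at the 1.71 percentile with LPS and the 1.81 percentile untreated. The difference was -0.0094 with an interval of -0.18 to 0.16, which is 0.886 to 1.11 as a fold. Whether a probe set this close to the bottom of the scale follows its transcript was not tested.

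CD14, a surface co-receptor best known from monocytes that hands LPS to MD-2, also lay low. Its probe set gave 5.38 and 5.64 in LPS-treated cells, against 5.68 and 5.46 in untreated cells (log2 level), at the 21.2 percentile with LPS and the 22.4 percentile untreated. The groups overlapped, the difference was -0.063 (interval -0.34 to 0.21), and its sign changed when untreated replicate 1 or LPS replicate 1 was left out (0.046 and 0.064).

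LBP is an acute-phase protein made mainly by the liver. Its probe set 211652_s_at stood at 7.22 and 7.44 in LPS-treated cells, against 7.34 and 7.35 in untreated cells (log2 level), a difference of -0.012 (interval -0.24 to 0.22). On 214461_at the values were 6.32 and 6.35 with LPS, against 6.10 and 6.44 untreated, a difference of 0.070 (interval -0.21 to 0.35). On each probe set 1 group lay wholly inside the spread of the other, and the probe sets differed by 1.08 in untreated level.

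**Figure D2:**
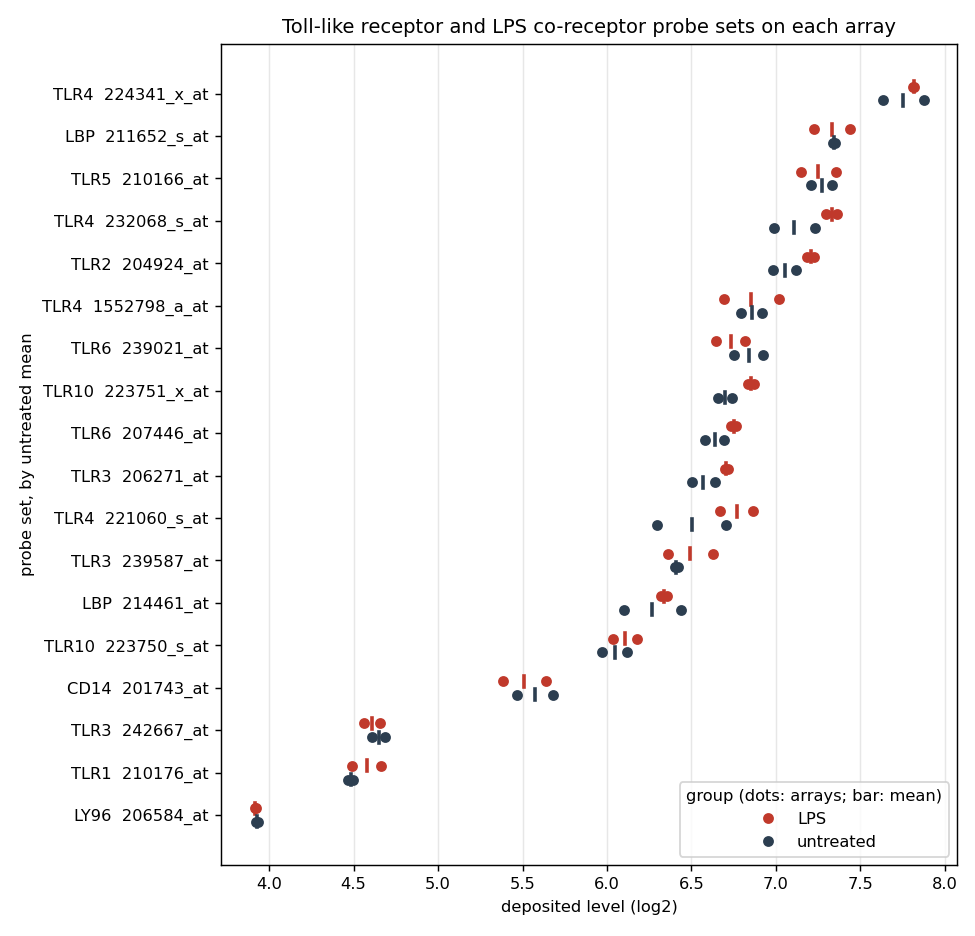
Deposited log2 level of the 18 receptor and co-receptor probe sets on each array, with LPS arrays drawn above untreated arrays in each row, and a bar at the mean of each group. Rows run from the highest untreated mean, TLR4 224341_x_at at 7.75, to the lowest, LY96 at 3.93, and the groups are separate in 5 rows.

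TLR2, the lipopeptide receptor that has also been named as a receptor for H. pylori LPS, stood at 7.23 and 7.19 (log2 level) in LPS-treated cells, against 6.98 and 7.12 in untreated cells. Both LPS arrays were above both untreated arrays. The group means were 7.21 ± 0.028 with LPS and 7.05 ± 0.098 untreated (SD, n = 2 each), a 1.11-fold difference with an interval of 0.965 to 1.28. It did not pass (limma adjusted p = 0.588), and it lay between 0.086 and 0.22 on the log2 scale with any 1 array left out.

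TLR1, TLR6 and TLR10 are the closest relatives of TLR2 in sequence, and in the RefSeq genes of human assembly GRCh38.p14 TLR10, TLR1 and TLR6 follow each other with no other protein-coding gene between them. TLR1 pairs with TLR2 for triacylated lipopeptides. It was low, at 4.66 and 4.49 in LPS-treated cells, against 4.49 and 4.47 in untreated cells (log2 level), the 7.84 percentile untreated, with a difference of 0.095 (interval -0.11 to 0.30) and overlapping groups. That difference was 0.0077 without LPS replicate 1 and 0.18 without LPS replicate 2.

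TLR6 pairs with TLR2 for diacylated lipopeptides, and its 2 probe sets went in opposite directions. On 207446_at it stood at 6.76 and 6.74 with LPS, against 6.69 and 6.58 untreated (log2 level), a difference of 0.11 (interval -0.087 to 0.31) with separate groups. On 239021_at it stood at 6.64 and 6.82 with LPS, against 6.75 and 6.92 untreated, a difference of -0.11 (interval -0.35 to 0.13) with overlapping groups. Their mean differed by 0.0033, so TLR6 had no settled direction.

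TLR10, a relative with reported inhibitory activity, had 2 probe sets. Probe set 223751_x_at gave 6.87 and 6.83 in LPS-treated cells, against 6.74 and 6.66 in untreated cells (log2 level), a difference of 0.15 (interval -0.044 to 0.35; limma adjusted p = 0.574), with separate groups. Probe set 223750_s_at gave 6.03 and 6.18 with LPS, against 5.97 and 6.12 untreated, a difference of 0.058 (interval -0.17 to 0.28), with overlapping groups. It was -0.017 without untreated replicate 1 and -0.012 without LPS replicate 2. The _x_at and _s_at types of probe set can cross-react with related transcripts. Both TLR10 probe sets are of these types, as are 3 of the 4 for TLR4 and 1 of the 2 for LBP.

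TLR5, the flagellin receptor, stood at 7.36 and 7.15 (log2 level) in LPS-treated cells, against 7.21 and 7.33 in untreated cells. The LPS arrays lay on both sides of the untreated ones, and the difference was -0.019 (interval -0.26 to 0.22).

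TLR3, the endosomal receptor for double-stranded RNA, had the widest spread of level between probe sets, 1.92 on the log2 scale. Probe set 206271_at gave 6.71 and 6.70 in LPS-treated cells, against 6.64 and 6.50 in untreated cells, a difference of 0.13 (interval -0.072 to 0.34), with separate groups. Probe set 239587_at gave 6.36 and 6.63 with LPS, against 6.40 and 6.42 untreated, a difference of 0.083 (interval -0.17 to 0.33). Probe set 242667_at, the faintest, gave 4.56 and 4.66 with LPS, against 4.61 and 4.69 untreated, a difference of -0.038 (interval -0.23 to 0.15). The groups overlapped on both of these.

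Groups were separate with LPS higher on 5 of the 18 probe sets, 1 each for TLR2, TLR3, TLR4, TLR6 and TLR10. That is 27.8% of the members, against 19.5% of all probe sets. Groups were separate with LPS lower on 0 of 18, against 21.1% of all probe sets. After quantile normalization these counts were 5 and 1, the added one being LY96, against 20.9% higher and 20.2% lower of all probe sets. The mean with LPS was above the untreated mean on 11 of the 18, against 50.7% of all probe sets. The absolute difference exceeded the larger gap between replicates of a group on 3 of the 18, which were TLR2, TLR6 207446_at and TLR10 223751_x_at, against 28.5% of all probe sets. The median gap between replicates was 0.12 for LPS and 0.13 for untreated cells among the members, and 0.083 and 0.097 among all probe sets.

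The baseline position of the members was low to middling. In untreated cells they ranged from the 1.81 to the 64.6 percentile of all non-control probe sets, and 13 of 18 lay under the 50 percentile. Their median was the 43.5 percentile in LPS-treated and the 41.0 percentile in untreated cells. The order was led by TLR4 224341_x_at at 7.75 ± 0.17, followed by LBP 211652_s_at at 7.34 ± 0.0079, TLR5 at 7.27 ± 0.088, TLR4 232068_s_at at 7.11 ± 0.17 and TLR2 at 7.05 ± 0.098 (untreated log2 level, SD, n = 2). From TLR5 to TLR2, neighbours in this order overlapped between arrays, as did TLR4 1552798_a_at and TLR6 239021_at and all neighbours from TLR10 223751_x_at down to TLR10 223750_s_at. CD14, TLR3 242667_at, TLR1 and LY96 came last, and each was separate from the next. Probes differ in how strongly they bind, and probe sets of the same gene lay up to 1.92 apart for TLR3 and 1.25 for TLR4. This order of signals is therefore not an order of transcript amounts. What set the gaps was not tested.

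A list of genes restricted to other tissues, such as insulin, a retinal opsin and sperm protamines, was used to describe probe sets near background. Its 37 probe sets had a median of 6.31, and 90% lay at or below 8.00 (untreated log2 level). Of the 18 member probe sets, 12 were above that median and 0 were above the 90% value. Among all non-control probe sets that median lay at the 34.9 percentile and the 90% value at the 68.4 percentile. MBP, a myelin gene with further transcripts in other tissues, supplied 9 of the 37 probe sets, up to 10.14. Without MBP the remaining 28 reached 7.87, with 90% at or below 7.14, and 3 member probe sets exceeded that value (TLR4 224341_x_at, LBP 211652_s_at and TLR5), with 0 above the highest. The receptor probe sets lay within the range of these genes, and detection calls were not used here.

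**Figure D3:**
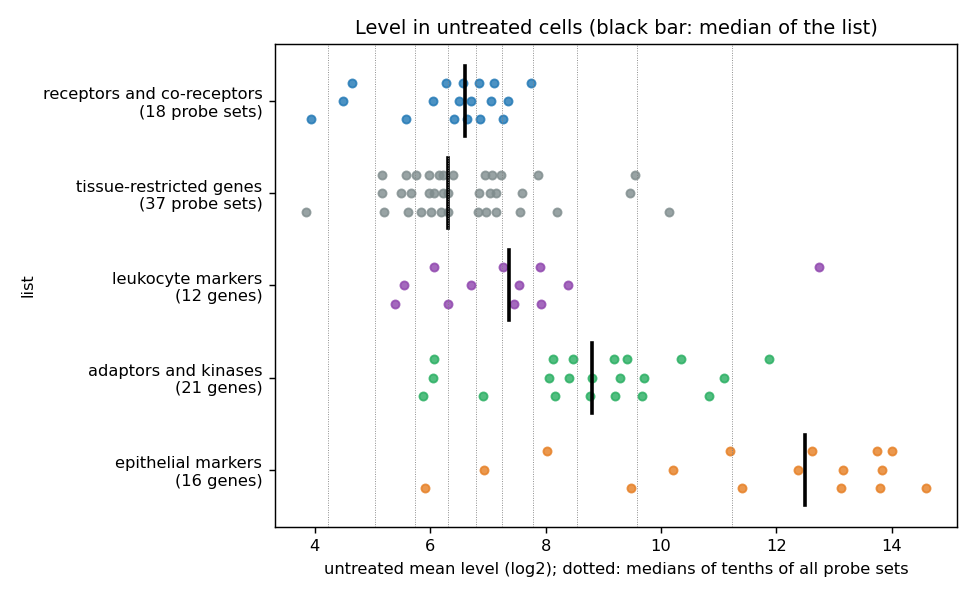
Untreated mean log2 level of the 18 receptor and co-receptor probe sets, the 37 probe sets of tissue-restricted genes, and leukocyte markers, adaptors and kinases, and epithelial markers by each gene's brightest probe set. Black bars mark medians, which lie at 6.31 for tissue-restricted probe sets, 8.80 for adaptors and kinases, and 12.50 for epithelial markers.

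Other genes of the pathway were taken from lists drawn up by function, each gene by its probe set with the highest mean. Many of these genes had several probe sets, such as SCARB1 and CD36 with 5 each. Except for TLR7, TLR8 and CXCL8, their further probe sets were not compared. The Toll-like receptors of endosomes outside the main list are TLR7 and TLR8, sensors of single-stranded RNA, and TLR9, the sensor of CpG DNA. TLR8 220832_at gave 6.57 and 6.70 in LPS-treated cells, against 6.22 and 6.46 in untreated cells (log2 level), a difference of 0.29 (interval 0.040 to 0.55) that did not pass (limma adjusted p = 0.448), while its other probe set differed by -0.050. TLR7 differed by 0.20 on 222952_s_at and 0.073 on 220146_at, with LPS arrays above untreated arrays on both, and TLR9 differed by 0.027. None of these 3 genes passed, and TLR8 alone had an unadjusted p below 0.05.

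Of 24 adaptors and kinases, 21 had a probe set of their own, and 0 of 21 passed by limma, with a median difference of -0.0096. At an unadjusted p under 0.05 there were 0 higher and 1 lower. That gene was TAB2, which links TRAF6 to the kinase TAK1, at a difference of -0.22 (limma adjusted p = 0.493). TIRAP, the adaptor that brings MYD88 to TLR2 and TLR4, differed by 0.17 (limma adjusted p = 0.508). The adaptors and kinases lay at a median of the 77.8 percentile in untreated cells. MYD88 itself, shared by all these receptors except TLR3, lay at the 94.4 percentile and differed by 0.076.

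Among accessory and chaperone proteins, 0 of 11 measured passed by limma, and at an unadjusted p under 0.05 there was 1 higher and 0 lower. Their median difference was 0.063. The smallest p-values belonged to SCARB1, a lipoprotein receptor that can bind LPS, at 0.24 (limma adjusted p = 0.452), and to CD36, a scavenger receptor that assists TLR2 with TLR6, at -0.23 (adjusted p = 0.523). Among inhibitors of receptor signalling, 0 of 11 measured passed, with a median difference of -0.0025, and at an unadjusted p under 0.05 there was 1 higher and 0 lower. TNFAIP3, a deubiquitinase induced by NF-kB, differed by 0.46 (limma adjusted p = 0.296) and RNF216, a ubiquitin ligase that targets Toll-like receptors, by -0.15 (adjusted p = 0.549). At an unadjusted p under 0.05, 3.66% of all probe sets were higher and 6.42% lower.

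**Figure D4:**
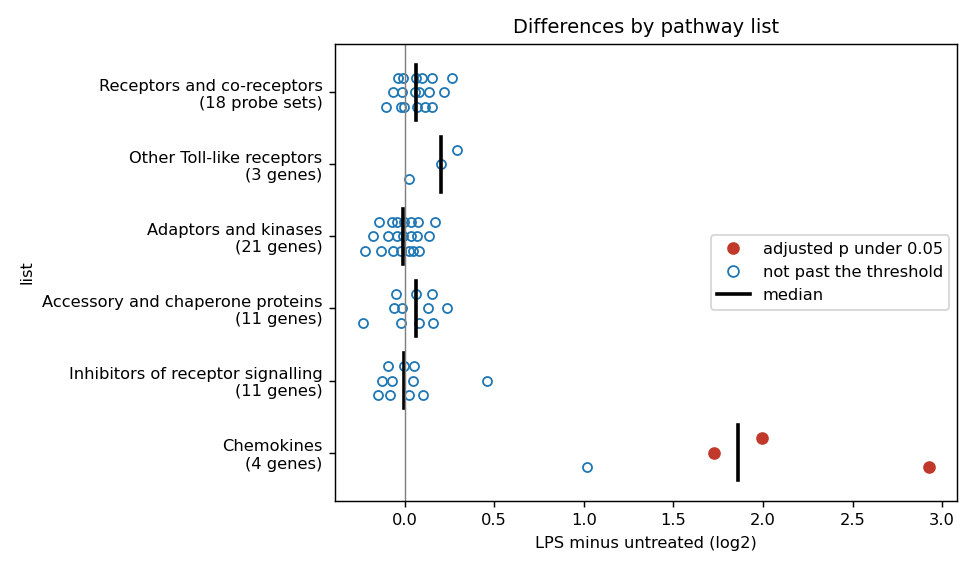
Log2 difference, LPS minus untreated, of the receptor probe sets and of each gene in the pathway lists, with filled points past an adjusted p of 0.05 and bars at medians. The filled points are CCL20, CXCL1 and CXCL8, and the 18 receptor and co-receptor values lie between -0.11 and 0.27.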

How the data were processed

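The data were 4 Affymetrix arrays of MKN45 cells, 2 treated with LPS and 2 untreated, grouped by their labels. The deposited values were log2 levels, as judged from the values. MAS5 and RMA are named in the submitters' processing notes, with no version, and which of them made these values is not given in the sources used here. The arrays had nearly equal distributions as deposited, so a shift of all transcripts in the same direction would not be seen. Of 54675 probe sets, 62 controls were left out. Probe sets were named from the platform annotation, and all 10 member symbols matched the RefSeq gene table by Entrez identifier.

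The groups were tested with limma 3.58.1 under R 4.3.3 (lmFit, eBayes with an intensity trend, 7.14 degrees of freedom, two-sided), with Benjamini-Hochberg adjustment over 54613 probe sets and no level filter. A filter at the 30 percentile (6.06) would have kept 14 of 18 members. An exact permutation test of 2 arrays against 2 cannot go below p = 0.333 and was not used. The procedure was tested on simulated data. The number of arrays limits the precision.

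Members, lists and tests were chosen with earlier results of these data known. Named genes were all members, TLR7, TLR8, TLR9 and 4 chemokine genes, and in each other pathway list up to 4 genes past the threshold or the 2 with the smallest p. MYD88 and the named markers were added as context after their values were seen. Alternatives were the level filter, quantile normalization, median centring, eBayes without trend, a replicate block, a threshold of 0.1, probe sets averaged by gene, probe sets without _x_at and _s_at types, and leaving out each array.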

Additional observations from a re-analysis of the deposited data

How the results depend on the processing

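The count of member probe sets past the threshold was 0 under every alternative run for it, with the smallest limma adjusted p at 0.354 (LBP 214461_at without untreated replicate 2). Of 158 values of single member probe sets under alternatives, 145 kept their direction. The level filter, eBayes without trend and the replicate block leave every difference unchanged by construction. Their values could not change direction and say nothing about its stability. The 13 probe-set values that changed sign all came from leaving out an array, which gave 72 of the values. The ranges with 1 array left out were -0.049 to 0.21 for TLR3 239587_at, -0.086 to 0.0094 for TLR3 242667_at, -0.16 to 0.16 for TLR4 1552798_a_at, -0.059 to 0.18 for TLR4 224341_x_at, -0.12 to 0.085 for TLR5, -0.017 to 0.13 for TLR10 223750_s_at, -0.19 to 0.064 for CD14, -0.12 to 0.096 for LBP 211652_s_at and -0.099 to 0.24 for LBP 214461_at. By gene, TLR6 turned to 0.0033 and LBP to 0.029 with the mean of probe sets, and TLR4 to -0.0025 and LBP to 0.070 without _x_at and _s_at types. The cause was not tested.

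Over all probe sets 3 passed, against 5 after quantile normalization, 11 after median centring, 5 at an adjusted p under 0.1 and 1 to 9 with 1 array left out. With the replicate block 3 passed and 0 members did, with a smallest limma adjusted p of 0.381 (TLR4 221060_s_at). The block changed no member's call. Replicate numbers were not tied to the experiments by the labels. Deviations of same-numbered arrays correlated at 0.154 across all probe sets and at 0.214 across those above the level filter. Members with separate, lower groups numbered 1 (LY96) after quantile normalization, where 20.2% of all probe sets did so, and 0 as deposited, where 21.1% did. The count of members above 90% of tissue-restricted probe sets was 3 without MBP, an alternative chosen after seeing the data. With an array left out, its group's lone array was assumed to vary like the others.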
